A study of Mus musculus with 12 samples.

Results

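The genes described here are 40 mouse genes that write, erase or read lysine acetylation or build the corepressor complexes that carry the erasers. They were picked by symbol from the 78334 genes of the count table; the rule uses no measured value, but earlier results of these data were known when the list was drawn up. They comprise 11 zinc-dependent histone deacetylases (HDACs), 7 sirtuins, 10 acetyltransferases, 2 readers of the BET family and 10 corepressor subunits. All 40 were found in the table and all 40 had enough counts to be tested.

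RNA was taken from the left ventricle of 12 mice, with 4 animals and 1 library each in 3 groups. UNX/DOCA ITF2357 mice had a kidney removed, were given deoxycorticosterone acetate to induce diastolic dysfunction, and ate chow containing ITF2357 from 4 weeks after surgery for a further 4 weeks. UNX/DOCA vehicle mice had the same surgery and ate normal chow. Sham vehicle mice had a sham operation and normal chow. ITF2357 is givinostat, a small molecule that inhibits zinc-dependent HDACs. No Sham group ate ITF2357 chow, so the drug was measured in UNX/DOCA hearts only. The sources used here do not give the dose in the chow or the strain, sex and age of the mice.

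Acetylation of lysines in histone tails is added by acetyltransferases, recognised by bromodomain and YEATS domain proteins, and removed by HDACs and sirtuins. Class I HDACs work inside the NuRD, Sin3, CoREST and NCoR complexes. Class IIa HDACs hold the MEF2 transcription factors in check and leave the nucleus of the cardiomyocyte when stress kinases phosphorylate them, and sirtuins use NAD and act in the nucleus, the cytoplasm and the mitochondria. A drug such as ITF2357 blocks the enzymes' active site, so mRNA counts speak of neither enzyme activity nor acetylation.

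Libraries held 23.4 to 34.9 M counts, of which the 40 genes together took 0.142% to 0.179%. The defining markers of the labelled tissue were there: cardiomyocyte markers summed to 64241 to 80729.6 CPM per library, in counts brought to an equal library size by TMM, against 11.2 to 22.7 CPM for atrial and nodal markers. On the first principal component, UNX/DOCA vehicle replicates 3 and 4 lay highest, at 66.0 and 32.9, and Sham vehicle replicate 1 lowest, at -35.6. UNX/DOCA ITF2357 replicate 1 was highest on the second, at 39.4, and replicate 2 lowest on the third, at -41.0. Neutrophil markers summed to 539 and 170.1 CPM in UNX/DOCA vehicle replicates 3 and 4, and to 25.1 and 3.91 CPM in its replicates 1 and 2. They summed to 5.07 to 29.9 CPM in UNX/DOCA ITF2357 and 14.6 to 47.3 CPM in Sham vehicle. Fibroblast markers were also highest in UNX/DOCA vehicle replicate 3, at 1480 CPM, where the other libraries held 728 to 1119.6 CPM. Macrophage markers summed to 187 to 356 CPM in UNX/DOCA ITF2357, 195 to 523 CPM in UNX/DOCA vehicle and 203 to 242 CPM in Sham vehicle, and erythroid markers to 238 to 579 CPM, 162 to 364 CPM and 427 to 538 CPM in these groups. Of 11 lists, 10 of cell type markers and 1 of core clock genes, that of B cells alone had called genes. Among them Cd79b, below 1 CPM on average, fell in UNX/DOCA ITF2357 against UNX/DOCA vehicle (edgeR adjusted p = 0.0432), and Cd79b and Ms4a1, also below 1 CPM, fell against Sham vehicle (adjusted p = 0.0215 and 0.0343). Their list summed to 4.60 to 5.95 CPM in UNX/DOCA ITF2357, 4.10 to 10.97 CPM in UNX/DOCA vehicle and 5.22 to 11.9 CPM in Sham vehicle. Core clock genes summed to 620 to 802 CPM, 414 to 708 CPM and 451 to 769.5 CPM in these groups. A part of the clock in the differences was not tested. Of the 40 genes, UNX/DOCA vehicle replicate 3 had the highest value of all 12 libraries in 12 and the lowest in 10. Where leaving out a library moved a member's printed log2 fold change of 0.1 or more by over 1.5 times, the value without it is given. The part of these cell types in the differences was not tested. In such bulk tissue, fewer cells of a type and less RNA per cell cannot be told apart.

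Levels differed between the genes by about 2 orders of magnitude and far less between the groups. Per kb of exon, Rbbp7, a histone chaperone of several HDAC complexes, had the highest level at 57.8 ± 3.09 CPM per kb (mean ± SD over 12 libraries). The acetyltransferase gene Kat2b followed at 24.4 ± 2.88 CPM per kb and the NuRD remodeller gene Chd4 at 19.03 ± 2.32 CPM per kb. Hdac2 had 11.2 ± 0.811 CPM per kb, Sirt2 11.1 ± 0.957, Brd2 10.9 ± 1.45 and Hdac3 10.7 ± 0.803, and these 4 genes did not differ beyond their spread. Among zinc-dependent HDACs the order per kb was Hdac2, Hdac3, Hdac5 at 8.78 ± 1.26, Hdac7 at 7.13 ± 1.63 and Hdac1 at 4.20 ± 0.306 CPM per kb. Hdac6, Hdac10, Hdac11, Hdac9 and Hdac4 lay between 3.16 ± 0.268 and 1.47 ± 0.422 CPM per kb, and Hdac8 had the lowest level of all 40 genes at 0.597 ± 0.102. Exon length here is the union of the annotated transcripts, so genes with rare long transcripts appear low.

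**Figure D1:**
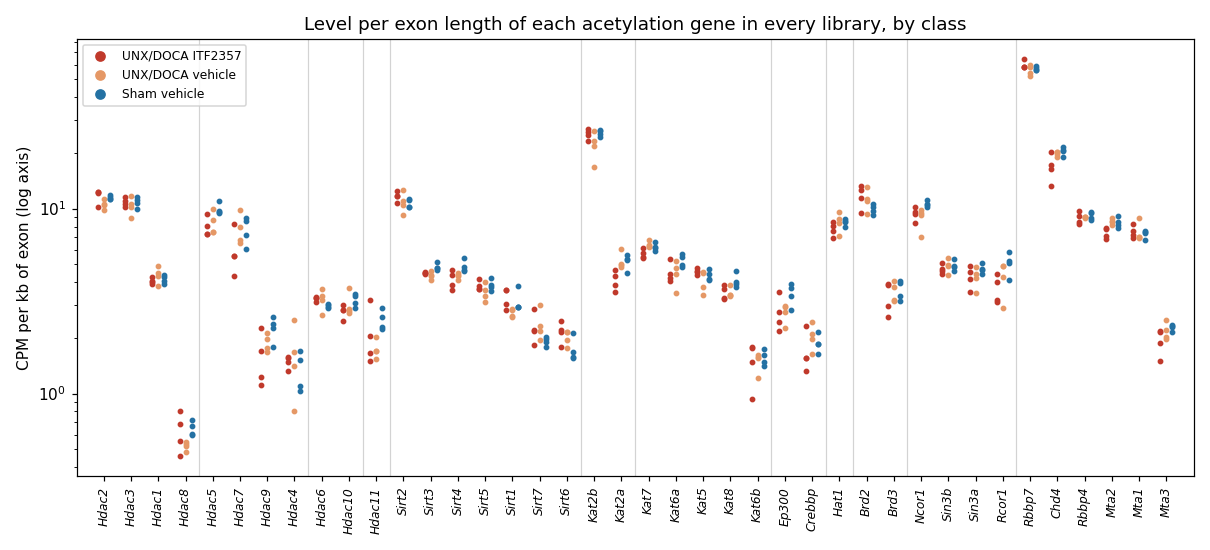
Level of each of the 40 genes in all 12 libraries, in CPM per kb of exon on a log axis, by class from erasers to corepressors and within a class from high to low; each point is 1 library, with UNX/DOCA ITF2357 at the left, UNX/DOCA vehicle in the middle and Sham vehicle at the right of each gene. Rbbp7 lies highest and Hdac8 lowest, and the groups overlap in most genes.

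The first question is whether 4 weeks of the HDAC inhibitor altered the mRNA of its own targets and of their partners. None of the 40 genes passed the threshold, an adjusted p of 0.05 from edgeR's quasi-likelihood test over all 16981 genes tested. UNX/DOCA ITF2357 against UNX/DOCA vehicle had 0 of 40 genes called, where 0.901% of all genes were called (0.459% higher and 0.442% lower). At an unadjusted p under 0.05 there were 5 genes, 12.5% of the 40, against 18.5% of all genes, 8.70% positive and 9.80% negative. Those were Sirt1, with a positive difference, and Kat2a, Kat7, Mta2 and Chd4, with negative ones. DESeq2 and limma-voom also called 0 of the 40, beside 928 and 251 of all 16981 genes. The median log2 fold change of the 40 genes was 0.00, beside 0.00 for all genes, and 19 of 40 lay below 0, against 50.2% of all genes.

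UNX/DOCA vehicle against Sham vehicle asks what the surgery and mineralocorticoid did to the same genes. Here too 0 of 40 genes were called, and 0 of all genes were (0%). At an unadjusted p under 0.05 there were 5 genes, all negative, against 15.9% of all genes in either direction, 9.42% positive and 6.47% negative. They were Hdac5, Hdac11, Sirt3, Ep300 and Ncor1. DESeq2 and limma-voom called 0 of the 40, though they called 561 and 521 of all 16981 genes. The median log2 fold change was -0.07, beside 0.01 for all genes, and 26 of 40 lay below 0, against 48.9% of all genes.

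UNX/DOCA ITF2357 against Sham vehicle sets the drug-treated hearts beside the sham-operated ones. Again 0 of 40 genes were called, against 1.75% of all genes (0.913% higher and 0.842% lower). At an unadjusted p under 0.05 there were 9 genes, 8 of them negative, against 20.1% of all genes in either direction, 10.7% positive and 9.39% negative. The median log2 fold change was -0.11, beside 0.01 for all genes, and 29 of 40 lay below 0, against 47.7% of all genes. DESeq2 called 0 of the 40, and limma-voom with sample weights called 3 lower, namely Kat2a, Rcor1 and Chd4 (adjusted p = 0.0292, 0.0330 and 0.0405 by limma-voom). Over all 16981 genes, DESeq2 called 1168 and limma-voom 1506 in this comparison, so calls were far more frequent there than with edgeR. Each pair of these comparisons shares a group of libraries, so their values for a gene are not independent of each other.

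The sum of the 40 genes was 1613, 1624, 1551 and 1501 CPM in UNX/DOCA ITF2357 libraries, 1539, 1652, 1574 and 1592 CPM in UNX/DOCA vehicle and 1750.4, 1678, 1665 and 1631 CPM in Sham vehicle. The UNX/DOCA ITF2357 sums all lay below the Sham vehicle sums, while those of UNX/DOCA vehicle overlapped both. It averaged 1572 ± 57.4, 1589 ± 47.2 and 1681 ± 50.3 CPM in these groups (SD, n = 4 each).

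The data bound the size of what went undetected. The 95% interval of the log2 fold change lay within a 2-fold change in either direction for all 40 genes in each of the 3 comparisons. It lay within 1.5-fold for 34 of 40 genes between UNX/DOCA ITF2357 and UNX/DOCA vehicle, against 51.6% of all genes. The counts were 33 of 40 for UNX/DOCA vehicle against Sham vehicle and 33 of 40 for UNX/DOCA ITF2357 against Sham vehicle, where 52.5% and 51.3% of all genes lay within it. Intervals that reached past 1.5-fold belonged mostly to the class IIa genes Hdac4, Hdac7 and Hdac9, to Hdac11 and to Hdac8. The narrow intervals go with a small spread: the median SD within groups was 0.155 on the log2 scale for the 40 genes and 0.236 for all genes, and the median CPM was 25.4 against 9.26. These intervals are per gene, with no adjustment for the number of genes.

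**Figure D2:**
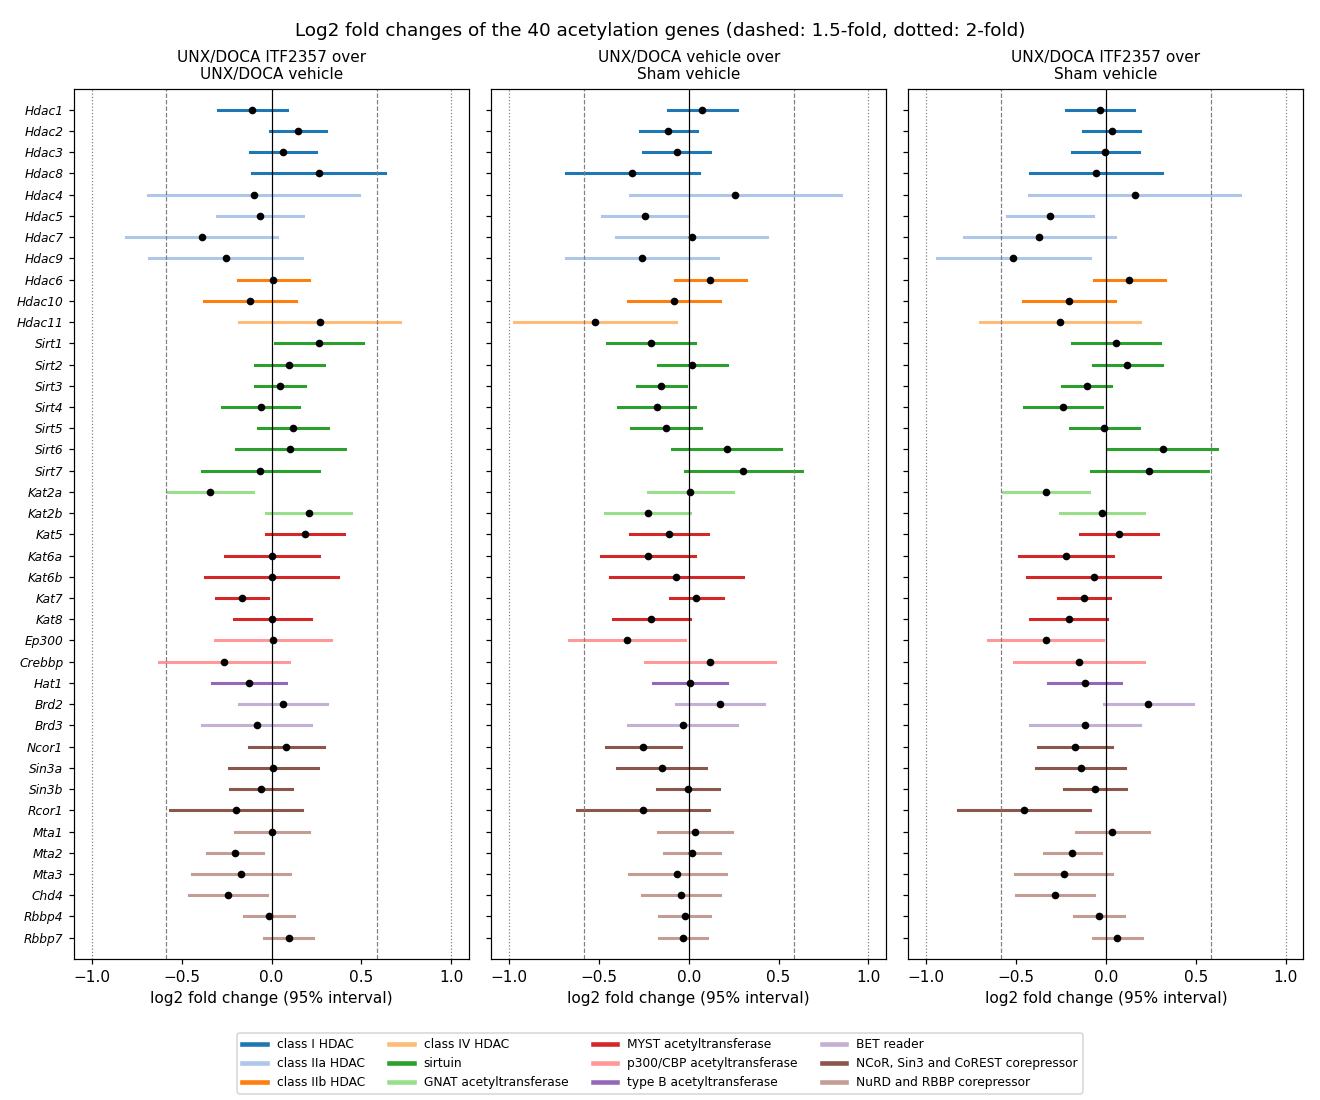
Log2 fold changes of the 40 genes in the 3 comparisons, each named above its panel; points are edgeR estimates and bars their 95% intervals, coloured by class, with dashed lines at 1.5-fold and dotted lines at 2-fold. All bars stay within the dotted lines, and the widest belong to Hdac4, Hdac7, Hdac9 and Hdac11.

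Promoter sequence was looked at across the 40 genes, which do not all share a complex or a cell compartment. Windows of 250 bases before the RefSeq start (GRCm38.p6) were at hand for 35 of the 40 genes, and not for Hdac1, Hdac3, Hdac10, Kat6a and Mta3. A CpG-rich window, with at least 50% G and C and at least 0.6 of the CG pairs its base composition would give, was found in 27 of 35 genes (77.1%), against 63.2% of 11150 tested genes. The other 8 were Hdac5, Hdac8, Hdac9, Kat2a, Kat2b, Kat7, Sirt5 and Sirt7. Some genes had more than 1 window, and a gene was counted if any of its windows matched, here and for the CpG-rich share. Read on both strands, the GC box (GGGCGG) stood in 29 of 35 genes (82.9%) against 61.1% of all, and CCAAT in 18 (51.4%) against 39.7%. The ETS core (CCGGAAG) was in 7 (20%) against 14.6%, the E-box (CACGTG) in 4 (11.4%) against 9.65%, and TATAAA in 3 (8.57%) against 8.63%. The cyclic AMP element (TGACGTCA) was in 0 of 35 genes and in 2.89% of all. These are letter matches in a fixed window and not sites. Printed below are the windows of Kat2a and Mta2, which had the smallest adjusted p under ITF2357, and of Hdac11 and Hdac9, which had the largest differences from Sham vehicle. They run 5′ to 3′ on the gene's strand with CG pairs in capitals, from RefSeq (GRCm38.p6), and bases after the earliest annotated transcript start were left out. The reads were aligned to another build, so the coordinates belong to the printed sequences only.
Kat2a, chr11:100712468-100712717, minus strand: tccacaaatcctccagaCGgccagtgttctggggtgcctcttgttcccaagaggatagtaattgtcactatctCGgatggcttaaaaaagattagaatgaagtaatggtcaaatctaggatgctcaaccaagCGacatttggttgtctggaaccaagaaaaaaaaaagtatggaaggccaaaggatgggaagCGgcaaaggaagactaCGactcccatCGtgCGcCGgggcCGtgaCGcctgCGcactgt
Mta2, chr19:8941670-8941874, plus strand: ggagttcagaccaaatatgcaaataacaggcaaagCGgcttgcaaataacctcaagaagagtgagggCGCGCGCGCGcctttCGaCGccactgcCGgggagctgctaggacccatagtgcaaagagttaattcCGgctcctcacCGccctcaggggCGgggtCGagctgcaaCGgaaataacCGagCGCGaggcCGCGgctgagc
Hdac11, chr6:91156565-91156664, plus strand: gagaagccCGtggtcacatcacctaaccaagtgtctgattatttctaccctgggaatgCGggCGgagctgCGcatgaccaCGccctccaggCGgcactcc
Hdac9, chr12:34917096-34917345, minus strand: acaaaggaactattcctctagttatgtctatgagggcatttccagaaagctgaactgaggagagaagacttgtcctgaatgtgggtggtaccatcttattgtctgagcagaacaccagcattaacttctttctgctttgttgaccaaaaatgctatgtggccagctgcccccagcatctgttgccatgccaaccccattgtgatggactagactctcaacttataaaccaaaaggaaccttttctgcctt
The Mta2 stretch of 205 bases holds 19 CG pairs and a GC box. Hdac11 holds 6 pairs and a GC box in 100 bases, Kat2a 11 pairs and none of the 6 motifs in 250 bases, and Hdac9 0 pairs and a TATAAA in 250 bases.

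Class I HDACs are the main nuclear targets of the drug. Of the 4 genes, 0 were called in any comparison. Hdac2, a catalytic subunit of NuRD, Sin3 and CoREST, had 55.0, 45.6, 54.2 and 54.8 CPM in UNX/DOCA ITF2357, 50.7, 47.1, 44.2 and 47.3 CPM in UNX/DOCA vehicle and 50.4, 51.5, 52.9 and 50.2 CPM in Sham vehicle. Replicate 2 of the ITF2357 group was its low library, and the 2 UNX/DOCA groups overlapped through it. The log2 fold change was 0.15 ± 0.07 (± SE; edgeR adjusted p = 0.303) for UNX/DOCA ITF2357 over UNX/DOCA vehicle. Hdac8, which acts outside those complexes and deacetylates cohesin, had 3.29, 2.22, 3.87 and 2.69 CPM in UNX/DOCA ITF2357, 2.63, 2.52, 2.58 and 2.34 CPM in UNX/DOCA vehicle and 3.46, 3.24, 2.93 and 2.88 CPM in Sham vehicle. All UNX/DOCA vehicle libraries lay below all Sham vehicle libraries, and the ITF2357 libraries spanned both. For UNX/DOCA vehicle over Sham vehicle, the log2 fold change was -0.31 ± 0.17 (edgeR adjusted p = 0.389). Hdac1, the close paralog of Hdac2, averaged 14.0 ± 0.529 CPM in UNX/DOCA ITF2357, 15.1 ± 1.59 CPM in UNX/DOCA vehicle and 14.3 ± 0.664 CPM in Sham vehicle (SD, n = 4 each). Hdac3, the enzyme of the NCoR complex, averaged 43.9 ± 2.16, 42.0 ± 4.76 and 44.0 ± 2.87 CPM in the same order of groups. The 95% interval of ITF2357 over vehicle was -0.30 to 0.08 for Hdac1 and -0.12 to 0.25 for Hdac3 on the log2 scale.

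Class IIa HDACs had 0 of 4 genes called in any comparison. Their SD within groups on the log2 scale ran from 0.166 for Hdac5 to 0.443 for Hdac4. All 4 log2 fold changes of UNX/DOCA ITF2357 over UNX/DOCA vehicle were below 0, with a median of -0.18, but Hdac4 turned to 0.20 without UNX/DOCA vehicle replicate 2 and Hdac5 to 0.03 without replicate 3 of that group. Their sum was 177, 161, 158 and 133 CPM in UNX/DOCA ITF2357, 153, 189.9, 202 and 170.1 CPM in UNX/DOCA vehicle and 216, 187, 186 and 184 CPM in Sham vehicle. The ITF2357 sums lay below all Sham vehicle sums and overlapped those of UNX/DOCA vehicle. Over Sham vehicle, 3 of the 4 ITF2357 log2 fold changes were below 0, and that of Hdac4 was above it. Such a separation was not limited to class IIa. The NCoR, Sin3 and CoREST genes summed to 182 to 210 CPM in UNX/DOCA ITF2357 and 165 to 213 CPM in UNX/DOCA vehicle, both below the 215 to 240 CPM of Sham vehicle.

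Hdac5, a brake on hypertrophic growth in mouse heart, had 82.6, 63.9, 70.7 and 64.4 CPM in UNX/DOCA ITF2357, 65.3, 76.1, 87.9 and 65.3 CPM in UNX/DOCA vehicle and 96.7, 84.1, 85.0 and 83.0 CPM in Sham vehicle. All ITF2357 libraries lay below all Sham vehicle libraries, and replicate 3 of UNX/DOCA vehicle reached into the Sham range. Over Sham vehicle, the log2 fold change was -0.31 ± 0.11 for UNX/DOCA ITF2357 (edgeR adjusted p = 0.145) and -0.24 ± 0.11 for UNX/DOCA vehicle (adjusted p = 0.306). Hdac7, known for its role in endothelial cells, had 37.6, 56.0, 37.4 and 29.2 CPM in UNX/DOCA ITF2357, 44.3, 45.5, 66.4 and 53.9 CPM in UNX/DOCA vehicle and 57.8, 60.4, 40.7 and 48.5 CPM in Sham vehicle. Its log2 fold change of -0.39 ± 0.19 over UNX/DOCA vehicle was the most negative of the 40 (adjusted p = 0.306), and was -0.26 without UNX/DOCA vehicle replicate 3 and -0.59 without ITF2357 replicate 2. The high ITF2357 library of Hdac7, replicate 2, also had the highest sum of endothelial markers of all 12 libraries, 1115 CPM. UNX/DOCA vehicle replicate 3, the highest library of Hdac7, had 1020 CPM of these markers. ITF2357 replicates 1 and 3, at 37.6 and 37.4 CPM of Hdac7, had 731 and 750 CPM of them. ITF2357 replicate 4, the lowest library of Hdac7, had 892 CPM of them, above the 788 to 874 CPM of Sham vehicle. The part of endothelial cells in these values was not tested.

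Hdac9, also a brake on hypertrophy in mouse heart, had 33.3, 16.3, 24.9 and 18.1 CPM in UNX/DOCA ITF2357, 31.1, 29.0, 25.8 and 24.5 CPM in UNX/DOCA vehicle and 37.9, 26.3, 33.2 and 34.9 CPM in Sham vehicle. Replicate 1 stood high among the ITF2357 libraries, and the other 3 lay below every Sham vehicle library. Over Sham vehicle, the log2 fold change was -0.52 ± 0.20 for UNX/DOCA ITF2357 (edgeR adjusted p = 0.172) and -0.26 ± 0.20 for UNX/DOCA vehicle (adjusted p = 0.549). Without ITF2357 replicate 1 the ITF2357 value was -0.75 and was called (adjusted p = 0.0441). Hdac4, the MEF2 repressor of many muscle cells, ranged from 20.9 to 24.99 CPM in UNX/DOCA ITF2357, 12.8 to 39.4 CPM in UNX/DOCA vehicle and 16.2 to 26.7 CPM in Sham vehicle. It had the largest spread within groups of all 40 genes, and its interval for ITF2357 over vehicle ran from -0.69 to 0.48.

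Of class IIb, 0 of 2 genes were called. Hdac6, the cytoplasmic tubulin deacetylase, had 19.4, 18.3, 19.02 and 19.2 CPM in UNX/DOCA ITF2357, 15.5, 18.7, 21.5 and 19.7 CPM in UNX/DOCA vehicle and 17.5, 16.9, 17.8 and 17.1 CPM in Sham vehicle. The ITF2357 libraries all lay above the Sham vehicle libraries, and those of UNX/DOCA vehicle ran from below to above both. The log2 fold change was 0.13 ± 0.09 for UNX/DOCA ITF2357 over Sham vehicle (edgeR adjusted p = 0.458) and 0.12 ± 0.09 for UNX/DOCA vehicle over Sham vehicle (adjusted p = 0.557), this second value being 0.05 without UNX/DOCA vehicle replicate 3 and 0.20 without its replicate 1. Hdac10, a polyamine deacetylase, had 9.61, 10.2, 8.30 and 9.57 CPM in UNX/DOCA ITF2357, 9.48, 9.21, 12.6 and 9.71 CPM in UNX/DOCA vehicle and 11.4, 11.7, 9.77 and 10.4 CPM in Sham vehicle. Its difference of -0.12 for UNX/DOCA ITF2357 over UNX/DOCA vehicle rested on replicate 3 of the vehicle group and was -0.01 without it, and -0.07 without ITF2357 replicate 3.

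Hdac11, the only class IV enzyme and mainly a remover of fatty acyl groups, had 12.3, 5.74, 7.84 and 6.34 CPM in UNX/DOCA ITF2357, 7.79, 6.56, 5.90 and 6.51 CPM in UNX/DOCA vehicle and 8.55, 9.95, 11.2 and 8.77 CPM in Sham vehicle. All UNX/DOCA vehicle libraries lay below all Sham vehicle libraries, and so did 3 of the 4 ITF2357 libraries, while replicate 1 of that group was the highest of all 12. For UNX/DOCA vehicle over Sham vehicle, the log2 fold change was -0.52 ± 0.21, the most negative of the 40 in that comparison (edgeR adjusted p = 0.256). It was -0.26 ± 0.21 for UNX/DOCA ITF2357 over Sham vehicle (adjusted p = 0.528) and -0.54 without ITF2357 replicate 1 (adjusted p = 0.0841), -0.12 without its replicate 2 and -0.17 without its replicate 4. Erythroid markers were also highest in ITF2357 replicate 1, at 579 CPM, against 238 to 289 CPM in the other libraries of that group, 162 to 364 CPM in UNX/DOCA vehicle and 427 to 538 CPM in Sham vehicle, and their part in these values was not tested.

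**Figure D3:**
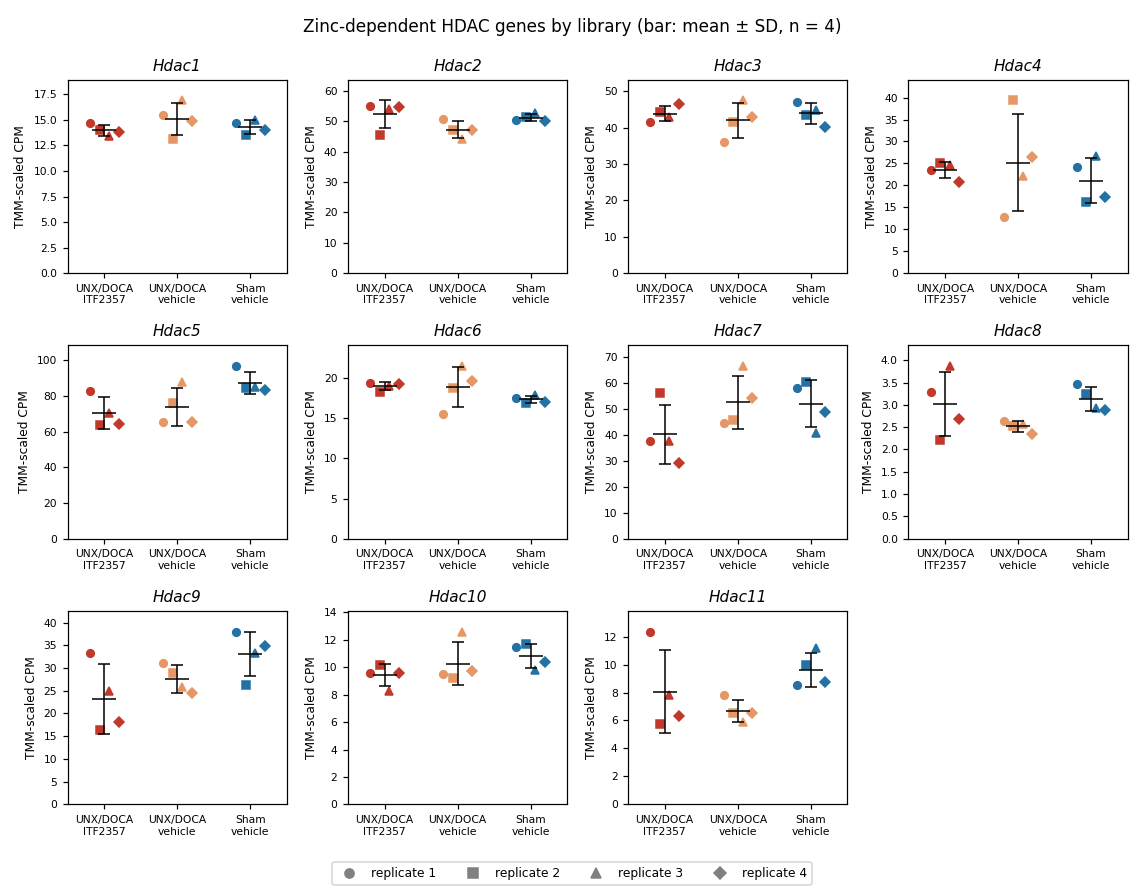
TMM-scaled CPM of the 11 zinc-dependent HDAC genes in each library, with UNX/DOCA ITF2357 left, UNX/DOCA vehicle in the middle and Sham vehicle right. Marker shapes give the replicate number within a group, which the titles do not tie to pairs of animals. Bars are mean ± SD (n = 4). Hdac11 and Hdac8 in UNX/DOCA vehicle lie below Sham vehicle, ITF2357 replicate 1 stands high in Hdac9 and Hdac11, and no difference passed the test.

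Among the 7 sirtuins, which ITF2357 does not target, 0 were called in any comparison. Sirt1, the nuclear sirtuin, had 15.0, 19.3, 16.2 and 19.3 CPM in UNX/DOCA ITF2357, 13.9, 15.1, 13.8 and 15.3 CPM in UNX/DOCA vehicle and 15.7, 15.7, 20.3 and 15.6 CPM in Sham vehicle. ITF2357 replicate 1 lay within the UNX/DOCA vehicle range and the other 3 above it, and all UNX/DOCA vehicle libraries lay below all Sham vehicle libraries. The log2 fold change of 0.27 ± 0.11 was the only positive one of the 40 with an unadjusted p under 0.05 for UNX/DOCA ITF2357 over UNX/DOCA vehicle (edgeR adjusted p = 0.233). Sirt3, the main mitochondrial deacetylase, had the smallest spread within groups of the 40. It had 26.8, 27.2, 26.6 and 26.7 CPM in UNX/DOCA ITF2357, 25.9, 27.4, 24.5 and 26.1 CPM in UNX/DOCA vehicle and 27.7, 30.7, 28.4 and 28.7 CPM in Sham vehicle. Every library of both UNX/DOCA groups lay below every Sham vehicle library. Over Sham vehicle, the log2 fold change was -0.11 ± 0.06 for UNX/DOCA ITF2357 (edgeR adjusted p = 0.372) and -0.15 ± 0.06 for UNX/DOCA vehicle (adjusted p = 0.275).

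Sirt4, also mitochondrial, averaged 9.91 ± 1.11 CPM in UNX/DOCA ITF2357, 10.3 ± 0.391 CPM in UNX/DOCA vehicle and 11.7 ± 0.854 CPM in Sham vehicle (SD, n = 4 each), with no overlap between UNX/DOCA vehicle and Sham vehicle. Sirt5, a mitochondrial desuccinylase, averaged 23.4 ± 1.46, 21.5 ± 2.27 and 23.5 ± 1.66 CPM in the same groups. Cytoplasmic Sirt2 averaged 58.5 ± 3.53, 54.6 ± 6.99 and 53.9 ± 2.74 CPM. Sirt6, a chromatin-bound sirtuin, averaged 5.98 ± 0.779, 5.58 ± 0.534 and 4.82 ± 0.728 CPM, and nucleolar Sirt7 11.6 ± 2.19, 12.2 ± 2.37 and 9.86 ± 0.522 CPM. Sirt6 and Sirt7 were the sirtuins with the most positive log2 fold changes over Sham vehicle. They were 0.32 and 0.24 for UNX/DOCA ITF2357 and 0.21 and 0.30 for UNX/DOCA vehicle, with edgeR adjusted p between 0.233 and 0.495 over these 4 values. Sirt7 over Sham vehicle was 0.10 for UNX/DOCA ITF2357 without its replicate 2 and 0.17 for UNX/DOCA vehicle without its replicate 3.

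The acetyltransferases held the smallest adjusted p of the 40 under ITF2357, and 0 of their 10 genes were called. Kat2a (GCN5), the catalytic subunit of the SAGA and ATAC coactivator complexes, had 15.0, 16.2, 13.5 and 12.4 CPM in UNX/DOCA ITF2357, 16.8, 17.5, 21.1 and 17.2 CPM in UNX/DOCA vehicle and 19.5, 18.4, 15.5 and 18.5 CPM in Sham vehicle. All ITF2357 libraries lay below all UNX/DOCA vehicle libraries and, apart from replicate 2, below all Sham vehicle libraries. The log2 fold change was -0.34 ± 0.11 for UNX/DOCA ITF2357 over UNX/DOCA vehicle (interval -0.58 to -0.11, edgeR adjusted p = 0.134). It was -0.34 ± 0.11 over Sham vehicle (adjusted p = 0.120), and 0.01 for UNX/DOCA vehicle over Sham vehicle. Without UNX/DOCA vehicle replicate 3, the highest library, the first value was -0.27 (adjusted p = 0.246).

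Its paralog Kat2b (PCAF) had 131, 122, 127 and 113 CPM in UNX/DOCA ITF2357, 107, 127, 81.4 and 113 CPM in UNX/DOCA vehicle and 128, 119, 130.0 and 124 CPM in Sham vehicle. Replicate 3 of UNX/DOCA vehicle was the lowest of the 12. The log2 fold change was -0.23 ± 0.11 for UNX/DOCA vehicle over Sham vehicle (edgeR adjusted p = 0.333) and -0.12 without that library. For UNX/DOCA ITF2357 over UNX/DOCA vehicle it was 0.21 ± 0.11 (adjusted p = 0.332), and 0.09 without it.

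Of the MYST family, Kat7 (HBO1), the histone acetyltransferase linked to DNA replication origins, had 31.9, 34.1, 30.1 and 29.9 CPM in UNX/DOCA ITF2357, 34.6, 35.1, 37.3 and 34.3 CPM in UNX/DOCA vehicle and 36.3, 34.4, 33.7 and 32.6 CPM in Sham vehicle. The ITF2357 libraries all lay below those of UNX/DOCA vehicle, the highest of them by little, with a log2 fold change of -0.16 ± 0.07 (edgeR adjusted p = 0.216). Kat8 (MOF), the catalytic subunit of the MSL and NSL complexes, had 9.39, 9.47, 10.6 and 11.2 CPM in UNX/DOCA ITF2357, 9.68, 9.86, 11.2 and 9.85 CPM in UNX/DOCA vehicle and 11.6, 11.3, 13.2 and 10.9 CPM in Sham vehicle. Only 1 library of each UNX/DOCA group reached the Sham range. Its log2 fold change over Sham vehicle was -0.21 ± 0.10 for UNX/DOCA ITF2357 (adjusted p = 0.266) and -0.21 ± 0.10 for UNX/DOCA vehicle (adjusted p = 0.325). Kat5 (TIP60), which works in DNA repair and transcription, averaged 16.1 ± 0.573 CPM in UNX/DOCA ITF2357, 14.2 ± 1.95 CPM in UNX/DOCA vehicle and 15.3 ± 0.962 CPM in Sham vehicle (SD, n = 4 each). Kat6a (MOZ) averaged 41.3 ± 5.26, 41.2 ± 6.75 and 48.2 ± 3.81 CPM and Kat6b (MORF) 25.1 ± 6.62, 25.1 ± 3.09 and 26.3 ± 2.44 CPM in the same groups, and the UNX/DOCA groups overlapped in all 3 genes.

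Ep300, which encodes the coactivator p300, had 34.7, 50.5, 39.6 and 31.2 CPM in UNX/DOCA ITF2357, 39.3, 42.2, 32.1 and 41.7 CPM in UNX/DOCA vehicle and 55.8, 53.1, 40.3 and 47.8 CPM in Sham vehicle. Replicate 2 of ITF2357 and replicates 2 and 4 of UNX/DOCA vehicle reached into the Sham range. Over Sham vehicle, the log2 fold change was -0.34 ± 0.15 for UNX/DOCA ITF2357 (edgeR adjusted p = 0.230) and -0.34 ± 0.15 for UNX/DOCA vehicle (adjusted p = 0.292), and it was 0.01 between the 2 UNX/DOCA groups. Its paralog Crebbp (CBP) had 17.9, 31.6, 21.1 and 20.96 CPM in UNX/DOCA ITF2357, 22.1, 28.3, 33.1 and 26.8 CPM in UNX/DOCA vehicle and 29.1, 22.2, 25.1 and 25.1 CPM in Sham vehicle. The difference of -0.27 ± 0.17 between the UNX/DOCA groups (adjusted p = 0.419) was -0.17 without UNX/DOCA vehicle replicate 3, -0.17 without ITF2357 replicate 1 and -0.46 without ITF2357 replicate 2. Hat1, which acetylates newly made histones before they enter chromatin, had 20.1, 23.3, 21.9 and 24.3 CPM in UNX/DOCA ITF2357, 27.6, 24.2, 20.4 and 25.3 CPM in UNX/DOCA vehicle and 24.4, 22.9, 24.7 and 25.2 CPM in Sham vehicle. Its groups overlapped, with a log2 fold change of -0.12 ± 0.09 for UNX/DOCA ITF2357 over UNX/DOCA vehicle (adjusted p = 0.514). It was -0.21 without UNX/DOCA vehicle replicate 3, -0.06 without replicate 1 of that group and -0.08 without ITF2357 replicate 1.

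The 2 BET readers, which bind acetylated histones at active genes, had 0 calls. Brd2 had 74.4, 104, 89.1 and 98.6 CPM in UNX/DOCA ITF2357, 73.4, 85.8, 103 and 88.4 CPM in UNX/DOCA vehicle and 75.5, 79.4, 83.4 and 72.2 CPM in Sham vehicle. Replicate 1 of each UNX/DOCA group lay within the Sham range, and the other 3 of each lay above it. Over Sham vehicle, the log2 fold change was 0.24 ± 0.11 for UNX/DOCA ITF2357 (edgeR adjusted p = 0.266) and 0.17 ± 0.11 for UNX/DOCA vehicle (adjusted p = 0.485), this second value being 0.09 without UNX/DOCA vehicle replicate 3. Brd3 had 28.5, 28.8, 21.8 and 19.1 CPM in UNX/DOCA ITF2357, 23.4, 29.9, 27.5 and 23.3 CPM in UNX/DOCA vehicle and 29.7, 28.9, 23.1 and 24.8 CPM in Sham vehicle, and all groups overlapped.

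Of the NCoR, Sin3 and CoREST corepressors, 0 of 4 were called, and all 4 log2 fold changes over Sham vehicle were below 0 in both UNX/DOCA groups, with medians of -0.16 for UNX/DOCA ITF2357 and -0.20 for UNX/DOCA vehicle. For UNX/DOCA vehicle, Sin3b turned to 0.04 without replicate 1 of that group and to 0.03 without Sham vehicle replicate 1. Without UNX/DOCA vehicle replicate 3, Rcor1 was at -0.11 (against -0.26 with it) and Sin3a at -0.07 (against -0.15). Ncor1, the scaffold that activates HDAC3, had 130.4, 119.8, 123 and 108 CPM in UNX/DOCA ITF2357, 121, 125, 90.3 and 118 CPM in UNX/DOCA vehicle and 142, 135, 130.4 and 135 CPM in Sham vehicle. All UNX/DOCA vehicle libraries lay below all Sham vehicle libraries, replicate 3 furthest, and ITF2357 replicate 1 reached the lowest Sham library. For UNX/DOCA vehicle over Sham vehicle, the log2 fold change was -0.25 ± 0.10 (edgeR adjusted p = 0.236), the smallest adjusted p of the 40 there, and -0.16 without UNX/DOCA vehicle replicate 3 (adjusted p = 0.413). Rcor1 (CoREST), which joins HDAC1 and HDAC2 to a histone demethylase, had 22.9, 25.1, 18.3 and 17.7 CPM in UNX/DOCA ITF2357, 27.8, 27.9, 16.5 and 24.1 CPM in UNX/DOCA vehicle and 33.2, 29.8, 23.4 and 28.8 CPM in Sham vehicle. The 3 groups overlapped, replicate 3 being the lowest library of Sham vehicle and of UNX/DOCA vehicle. Its log2 fold change for UNX/DOCA ITF2357 was -0.45 ± 0.17 over Sham vehicle (adjusted p = 0.165) and -0.20 ± 0.17 over UNX/DOCA vehicle (adjusted p = 0.569), the second being -0.35 without UNX/DOCA vehicle replicate 3, -0.12 and -0.12 without replicates 1 and 2 of that group in turn, and -0.12 without ITF2357 replicate 4. The scaffolds Sin3a and Sin3b averaged 23.1 ± 3.16 and 34.7 ± 1.97 CPM in UNX/DOCA ITF2357, 22.9 ± 3.01 and 36.1 ± 2.99 CPM in UNX/DOCA vehicle and 25.4 ± 1.51 and 36.2 ± 2.39 CPM in Sham vehicle (SD, n = 4 each).

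NuRD, which couples HDAC1 and HDAC2 to a nucleosome remodeller, and its histone chaperones had 0 of 6 genes called. Mta2, a NuRD scaffold, had 31.7, 32.3, 28.0 and 29.2 CPM in UNX/DOCA ITF2357, 33.3, 34.7, 36.4 and 35.2 CPM in UNX/DOCA vehicle and 34.7, 37.4, 32.2 and 33.6 CPM in Sham vehicle. All ITF2357 libraries lay below all UNX/DOCA vehicle libraries, with a log2 fold change of -0.21 ± 0.07 over UNX/DOCA vehicle (interval -0.36 to -0.05, edgeR adjusted p = 0.162) and -0.19 ± 0.07 over Sham vehicle (adjusted p = 0.179). Chd4, the remodelling ATPase of NuRD, had 162, 137, 132 and 107 CPM in UNX/DOCA ITF2357, 163, 159, 162 and 153 CPM in UNX/DOCA vehicle and 172, 165, 153 and 165 CPM in Sham vehicle. ITF2357 replicate 1 lay among the libraries of the other groups, and the other 3 lay below all of them. For UNX/DOCA ITF2357 the log2 fold change was -0.24 ± 0.10 over UNX/DOCA vehicle (adjusted p = 0.216) and -0.29 ± 0.10 over Sham vehicle (adjusted p = 0.140). Without ITF2357 replicate 1 the value over Sham vehicle was -0.40 and was called (adjusted p = 0.0458), and without ITF2357 replicate 4, the lowest library, the value over UNX/DOCA vehicle was -0.14.

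Mta3 had 11.6, 7.96, 11.5 and 9.94 CPM in UNX/DOCA ITF2357, 13.4, 11.7, 10.4 and 10.7 CPM in UNX/DOCA vehicle and 11.4, 12.3, 12.1 and 12.5 CPM in Sham vehicle, with overlap between all groups and a log2 fold change of -0.17 ± 0.13 between the UNX/DOCA groups (edgeR adjusted p = 0.496). It was -0.06 without ITF2357 replicate 2 and -0.09 without UNX/DOCA vehicle replicate 1. The third scaffold, Mta1, averaged 23.3 ± 1.79, 23.2 ± 2.95 and 22.7 ± 1.17 CPM in UNX/DOCA ITF2357, UNX/DOCA vehicle and Sham vehicle (SD, n = 4 each). The chaperones, shared with other chromatin complexes, had some of the narrowest intervals. Rbbp4 averaged 77.9 ± 5.77, 78.6 ± 0.321 and 79.9 ± 3.71 CPM and Rbbp7 174 ± 9.24, 163 ± 10.2 and 167 ± 4.41 CPM. Between the UNX/DOCA groups the 95% interval was -0.15 to 0.13 for Rbbp4 and -0.04 to 0.23 for Rbbp7 on the log2 scale.

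**Figure D4:**
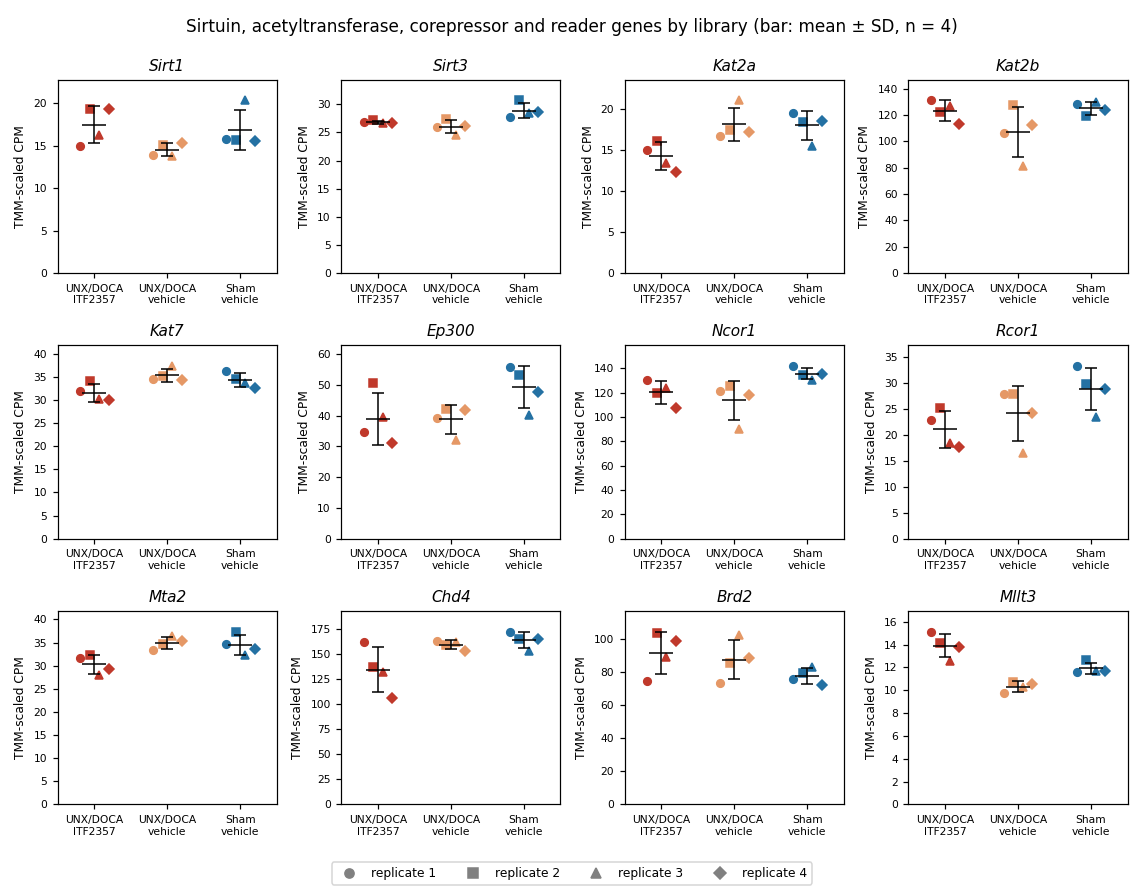
TMM-scaled CPM by library for 11 of the sirtuin, acetyltransferase, reader and corepressor genes and for Mllt3, a reader outside the 40. UNX/DOCA ITF2357 is left, UNX/DOCA vehicle in the middle and Sham vehicle right. Marker shapes give the replicate number within a group, which the titles do not tie to pairs of animals. Bars are mean ± SD (n = 4). Kat2a, Kat7 and Mta2 lie lower in UNX/DOCA ITF2357 than in UNX/DOCA vehicle in every library without passing the test, and Mllt3 lies higher.

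Counts of genes without overlap between groups were small, and whether they differ from the share of all genes was not tested. Between UNX/DOCA ITF2357 and UNX/DOCA vehicle the total lay under that share (7.5% against 9.31%). The lower genes there lay above theirs (7.5% against 4.36%). There were 3 of 40 (7.5%) between UNX/DOCA ITF2357 and UNX/DOCA vehicle, Kat2a, Kat7 and Mta2, all lower, against 9.31% of all genes (4.95% higher and 4.36% lower). Between UNX/DOCA vehicle and Sham vehicle there were 6 of 40 (15%), Hdac8, Hdac11, Sirt1, Sirt3, Sirt4 and Ncor1, all lower, against 9.39% of all genes (5.03% higher and 4.36% lower). Between UNX/DOCA ITF2357 and Sham vehicle there were 3 (7.5%), with Hdac6 higher and Hdac5 and Sirt3 lower, against 13.7% of all genes (7.27% higher and 6.39% lower).

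Further genes of the pathway were counted in 5 lists, over those members that had enough counts to be tested. Of 41 other subunits of acetyltransferase complexes, 35 other corepressor subunits, 16 enzymes and carriers of acetyl-CoA and NAD supply and 22 MEF2 factors, kinases and partners of class IIa HDACs, 0 were called in any comparison by edgeR. Among 30 other acetyl-lysine readers 1 gene rose in UNX/DOCA ITF2357 against UNX/DOCA vehicle and 0 others were called. Of all genes, 0.901% were called in that comparison, 0% between UNX/DOCA vehicle and Sham vehicle and 1.75% between UNX/DOCA ITF2357 and Sham vehicle. Whether the lists differ from these shares was not tested. The gene called was Mllt3 (AF9), a YEATS domain reader of the super elongation complex and a partner of DOT1L. Mllt3 had 15.1, 14.1, 12.6 and 13.8 CPM in UNX/DOCA ITF2357, 9.72, 10.7, 10.3 and 10.5 CPM in UNX/DOCA vehicle and 11.6, 12.6, 11.7 and 11.7 CPM in Sham vehicle. Every ITF2357 library lay above every UNX/DOCA vehicle library. The log2 fold change was 0.43 ± 0.08 (edgeR adjusted p = 0.0388), with -0.21 for UNX/DOCA vehicle over Sham vehicle (adjusted p = 0.265). The call is near the threshold: the adjusted p was 0.148 in a fit of the 2 groups alone, 0.0987 with no filter on low counts and 0.230 without UNX/DOCA vehicle replicates 3 and 4, while DESeq2 gave 0.000562. Over the lists at an unadjusted p under 0.05, the counts for UNX/DOCA ITF2357 against UNX/DOCA vehicle were 1 higher and 3 lower of 41, 1 and 3 of 30, 1 and 4 of 35, 2 and 2 of 16 and 2 and 4 of 22, beside 8.70% and 9.80% of all genes. In UNX/DOCA ITF2357 against Sham vehicle the class IIa partner list came nearest to a call. Camk2g, which encodes a kinase of the CaMKII family that sends class IIa HDACs out of the nucleus, stood at -0.43 on the log2 scale (adjusted p = 0.0522), and Mef2d, a MEF2 factor needed for stress remodelling in mouse heart, at -0.45 (adjusted p = 0.0593).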

How the data were processed

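The authors deposited raw counts per Ensembl gene from poly(A)-selected, strand-marking libraries. Per the submitters' processing notes, FastQC 0.11.9, STAR 2.7.10b and the mm39 build were used. The sources used here do not name the counting tool, strand setting or annotation, and reads of overlapping or antisense genes cannot be told apart. Libraries held 23.4 to 34.9 M counts, and the variance between replicates was 10.9 to 57.3 times that of counting alone (chi-square per degree of freedom). Groups come from the titles, because a second label gives the 4 ITF2357 libraries 4 different numbers. Per the labels' protocols replicates are biological; whether they share cages, litters or days is not known.

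Genes were tested with edgeR 4.0.16 (R 4.3.3): filterByExpr (10 counts), TMM, robust quasi-likelihood F tests over all 12 libraries with 9 residual degrees of freedom, and Benjamini-Hochberg adjustment over 16981 genes at 0.05. A standard error is the size of the log2 fold change over the root of F, and 95% intervals use the moderated degrees of freedom. Exon lengths are from GENCODE (GRCm38). The code was tested on simulated data. The members and lists were chosen with earlier results of these data known. Values in every library are given for the smallest p of each class in the first 2 comparisons. Those of Hdac9 and Chd4 were added after their values were seen. One marker gene's result is not reported here.

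Alternatives were RLE and upper-quartile scaling, DESeq2 1.42.0, no filter, 1 CPM or more in 4 libraries as the filter, limma-voom (limma 3.58.1) with sample weights, the 2 groups compared alone, a replicate block, each library left out, and both UNX/DOCA vehicle replicates 3 and 4 omitted.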

Additional observations from a re-analysis of the deposited data

Results flagged for a closer look

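Within a group, 9 of the 120 sets of 4 values (40 genes in 3 groups) held a library whose gap to the nearest other exceeded Dixon's 95% critical value of 0.829 of the range, where chance gives about 1 in 20, or 6. Of the 9, 5 were UNX/DOCA vehicle replicate 3, the library with the most neutrophil and fibroblast marker RNA. It was high for Kat2a at 21.1 CPM (others 16.8 to 17.5), Hdac10 at 12.6 CPM (9.21 to 9.71), Kat8 at 11.2 CPM (9.68 to 9.86) and Mta1 at 27.6 CPM (21.6 to 21.9), and low for Kat6b at 20.5 CPM (26.1 to 27.2). In UNX/DOCA ITF2357, Hdac2 was low in replicate 2 at 45.6 CPM (others 54.2 to 55.0) and Rbbp7 high in replicate 4 at 188 CPM (169 to 170.1). In Sham vehicle, Hdac5 was high in replicate 1 at 96.7 CPM (others 83.0 to 85.0) and Sirt1 high in replicate 3 at 20.3 CPM (15.6 to 15.7).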

How the results depend on the processing

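In every alternative 0 of the 40 genes were called between UNX/DOCA ITF2357 and UNX/DOCA vehicle and between UNX/DOCA vehicle and Sham vehicle. Between UNX/DOCA ITF2357 and Sham vehicle, limma-voom with sample weights called 3 (Kat2a, Rcor1 and Chd4, all lower), beside 1506 of all 16981 genes. Leaving out each library gave 0 to 2 calls in that comparison. The 2 were Hdac9 and Chd4 without UNX/DOCA ITF2357 replicate 1, where 310 of all 17280 genes were called, and the cause was not tested. Of 2520 fold changes of the 40 genes under an alternative, 2396 kept their direction, and the 124 that did not were uncalled in both fits. Many alternatives rescale the same counts or leave out a library outside the comparison. Directions could hardly change there, so this share does not measure how firm they are. The counts of all genes called moved by more than 1.5 times: 5 to 928 between UNX/DOCA ITF2357 and UNX/DOCA vehicle, where the main count was 153, 0 to 561 between UNX/DOCA vehicle and Sham vehicle, where it was 0, and 17 to 1506 between UNX/DOCA ITF2357 and Sham vehicle, where it was 298. With a replicate block, 0, 0 and 0 of the 40 genes were called in the 3 comparisons. Deviations from the group mean correlated at r from -0.19 to 0.25 (median 0.00) over 12 pairs of libraries with the same number. The pairs of number 4 lay at 0.21, 0.05 and 0.25, and those of number 3 at -0.03, -0.09 and -0.12. With 4 libraries per group, these values cannot tell whether animals of the same number shared cages, litters or days. The call of Mllt3 held with both other scalings, the 1 CPM filter, DESeq2, limma-voom and without UNX/DOCA vehicle replicate 2. It was lost with no filter, in the 2 groups alone, with the replicate block (adjusted p = 0.0687), without each of the other 11 libraries (0.0506 to 0.112) and without UNX/DOCA vehicle replicates 3 and 4. At an unadjusted p under 0.05, leaving out 1 library gave 2 to 8, 1 to 7 and 5 to 14 of the 40 genes in the 3 comparisons, where the counts with all libraries were 5, 5 and 9. The effect of depth was not tested, and with 1 library per animal, spread between animals and between preparations cannot be told apart.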
